A study of Mus musculus with 4 samples.

Results

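Aldo-keto reductases of family 1 were followed in skin of mouse embryos with and without overexpression of the transcription factor Ovol2. The rule named 10 genes, of which 8 had a probe set annotated with that gene symbol alone, among 19938 genes with a named probe set. The genes were selected by family name, and the family was taken up because Akr1d1 was among the genes most lowered in this very comparison. The values of Akr1d1 are therefore given as a description, without a test. Akr1b3 and Akr1b7 were not analysed here. Each of the 8 genes had 1 probe set, so no choice between probe sets was made.

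Total RNA of skin from E16.5 embryos was measured on 4 Affymetrix arrays that cover whole transcripts. The control and the Ovol2 BT group had 2 arrays each, and each array held RNA of 2 mice. Ovol2 BT embryos carried TRE-Ovol2-Flag, a tagged Ovol2 transgene that needs a tetracycline-controlled activator, together with K5-tTA, which makes that activator under the keratin 5 promoter and so in basal keratinocytes. Controls carried TRE-Ovol2-Flag alone or were wild type, and no array held K5-tTA alone. The labels give CB6F1 as the strain of both control arrays and FVB/N as that of both Ovol2 BT arrays, although they also describe littermates, so an effect of strain and one of the transgene cannot be told apart in any value below. The labels call all 4 arrays female. Levels are log2(intensity + 16) of the deposited PLIER intensities, and differences are Ovol2 BT minus control on that scale.

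Aldo-keto reductases use NADPH to turn carbonyl groups into alcohols. Their substrates include steroid hormones, bile acid precursors, sugars, retinaldehyde, prostaglandins and the reactive aldehydes of lipid oxidation. Akr1d1 is the exception in chemistry, since it reduces a carbon double bond in the steroid ring and not a carbonyl. It is best known from liver, where it acts in bile acid synthesis and in the clearance of steroid hormones.

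Ovol2 itself read 7.59 and 8.29 in control skin, against 12.93 and 12.96 in Ovol2 BT skin, so the overexpressed gene matched the labels. Markers of keratinocytes (Krt1, at a level of 13.99 to 14.10) and of dermal fibroblasts (Vim, at 13.72 to 13.81) were bright on all 4 arrays, as skin should show. The array of Ovol2 BT replicate 2 differed from the rest, with 893 of the 14953 genes tested more than 2-fold lower than the mean of the other 3, against 30 to 43 genes on each of those. Pearson's r across these genes was 0.924 to 0.935 between that array and the others and 0.976 to 0.983 among the others. Y-linked transcripts were high on replicate 1 of both groups (Eif2s3y at 10.13 and 10.40) and low on replicate 2 of both (6.17 and 4.72), while Xist read 7.07 and 8.36 on the former and 13.16 and 10.80 on the latter. The sex label thus did not match every array.

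Akr1d1 was lower in Ovol2 BT skin on both arrays, by nearly the same amount. Its intensity was 357.9 and 368.6 in control skin, against 68.7 and 67.7 in Ovol2 BT skin. As levels these were 8.55 and 8.59 against 6.40 and 6.39. The groups were far apart and the arrays within each group close together, with a difference of 0.04 between the controls and of -0.02 between the Ovol2 BT arrays. The difference between group means was -2.17 (8.57 with an SD of 0.03 against 6.40 with an SD of 0.01, n = 2 arrays each). On both Ovol2 BT arrays the level lay under 7.32, the 25th percentile of gene means and the lower limit for testing a gene, so the probe set was dim there, the gene passed the filter through its control arrays, and the size of the difference depends on the offset (-2.40 with an offset of 1 and -1.69 with 64). The Akr1d1 difference was -2.16 without Ovol2 BT replicate 2 and -2.18 without Ovol2 BT replicate 1, each with 1 array left in that group. Both Ovol2 BT arrays, the one with the Y-linked signal and the one without it, lay under either control array. The part of sex in the Akr1d1 value was not tested.

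**Figure D1:**
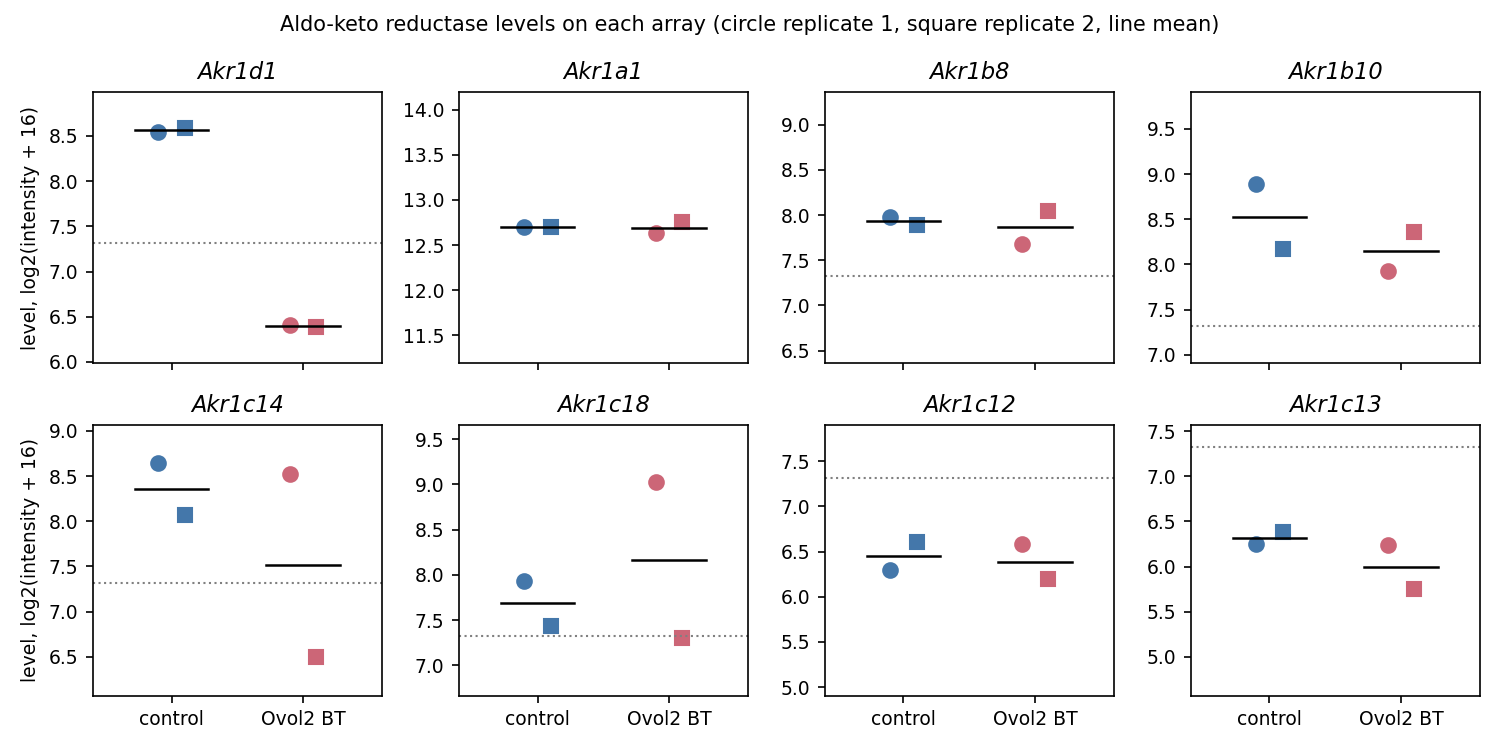
Level of each of the 8 aldo-keto reductases, log2(intensity + 16), on the 2 control arrays (blue) and the 2 Ovol2 BT arrays (red); circles are replicate 1, squares replicate 2, black lines group means, and the dotted line is the filter level of 7.32 where it falls in the panel. All panels span the same height on the log2 scale, and only Akr1d1 and Akr1c13 show groups that do not overlap.

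The bases before the Akr1d1 start are shown because Ovol2 is a zinc finger factor that binds DNA, and Akr1d1 is the member that differed most. They come from RefSeq on build GRCm38.p6, plus strand, chr6:37529923-37530172, and cover the 250 bases before the annotated start.
Akr1d1 promoter: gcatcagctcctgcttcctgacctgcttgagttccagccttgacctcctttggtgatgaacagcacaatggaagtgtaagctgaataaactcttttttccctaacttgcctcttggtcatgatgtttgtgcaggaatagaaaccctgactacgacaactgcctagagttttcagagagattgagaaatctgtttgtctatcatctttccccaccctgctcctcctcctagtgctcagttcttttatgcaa
The hexamer CCGTTA, the core recognised by Ovol proteins, was searched on both strands and was not found in this window. It was found in 0 of the 8 members' windows and in 2.18% of the 32851 windows of the same length in the table. The core of the antioxidant response element bound by Nrf2, TGACNNNGC, was also found in 0 of the 8, against 10.2% of all windows. A motif match or its lack describes these letters alone, and says nothing on whether a factor binds there or further away.

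The genes next to Akr1d1 were not lowered as it was, but only 1 of all genes tested had a lower difference than Akr1d1. In the gene order of GRCm38.p6 the 10 protein-coding genes on each side had values on these arrays, and 17 of these 20 were bright enough to be tested. Their differences ranged from -0.36 to 0.21, and limma called none, nor did any have an unadjusted p under 0.05. The nearest neighbours were Creb3l2, a transcription factor of the secretory pathway, at 0.09 (SE 0.16, limma adjusted p = 0.940), and Trim24, a nuclear receptor cofactor, at -0.16 (SE 0.25, limma adjusted p = 0.932). Without overlap between groups were 2 lower neighbours, Atp6v0a4 (-0.19) and Zc3hav1 (-0.36), and 1 higher, Creb3l2. Among all genes tested 14.1% were lower and 20.1% higher without overlap.

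**Figure D2:**
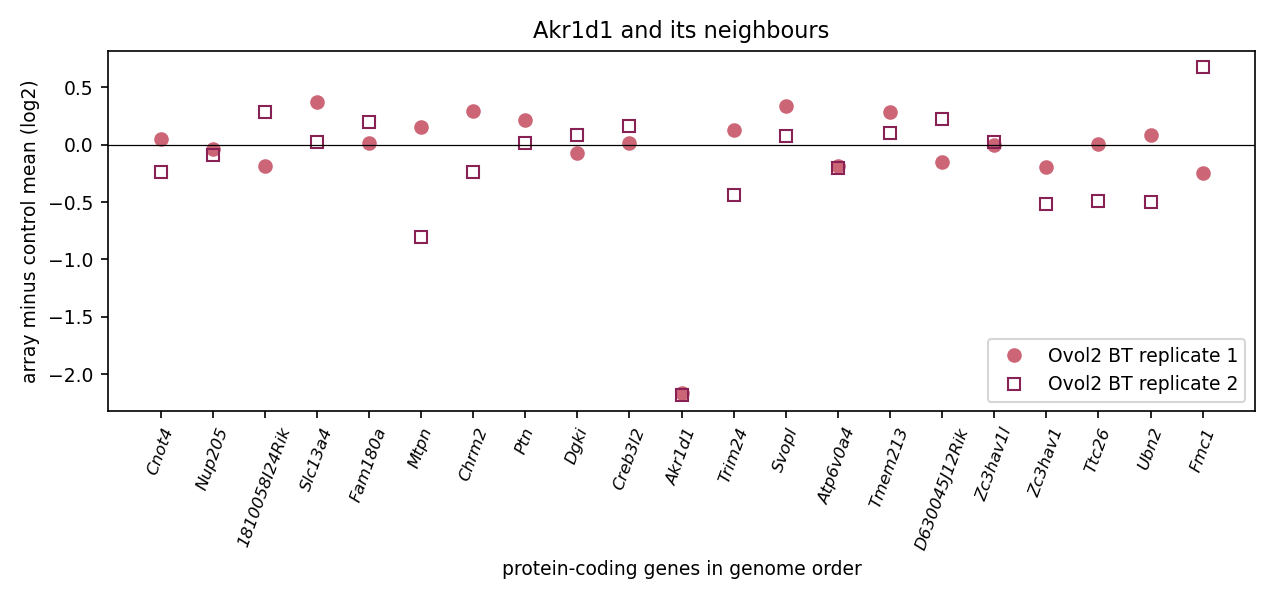
Log2 difference of each Ovol2 BT array from the control mean for Akr1d1 and the 10 protein-coding genes on either side in GRCm38.p6 gene order; filled circles are replicate 1 and open squares replicate 2. Akr1d1 lies at -2.16 and -2.18, and its neighbours scatter about 0.

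The genes whose values over the 4 arrays ran most like those of Akr1d1 were Ptprz1, Cldn8, Wnt16, Fetub and Cracdl. Likeness was measured as the root mean square distance between levels centred on each gene's own mean, over 4 arrays, and ranged from 0.16 for Ptprz1 to 0.34 for Cracdl. Ptprz1, a receptor-type protein tyrosine phosphatase, read 9.51 and 9.27 in control skin, against 7.55 and 7.36 in Ovol2 BT skin. Cldn8, a claudin of tight junctions, read 8.14 and 8.31 against 6.84 and 6.29. Both of its Ovol2 BT levels lay under 7.32, so it passed the filter through its control arrays, as Akr1d1 did. Wnt16, a Wnt ligand, read 8.89 and 9.12 against 7.54 and 7.36. In each of the 5, both Ovol2 BT arrays lay under both control arrays, as the choice by likeness to Akr1d1 requires.

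Akr1a1, the aldehyde reductase that in mice also serves vitamin C synthesis, was bright and even. It read 12.70 and 12.70 in control skin, against 12.63 and 12.75 in Ovol2 BT skin. The Ovol2 BT arrays lay on either side of the controls. The difference was within the spread of the arrays (-0.00402, SE 0.09, limma adjusted p = 0.994), with a 95% interval from -0.23 to 0.22.

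Of the 5 tested members other than Akr1d1, limma called none at an adjusted p under 0.05, and none had an unadjusted p under 0.05, where 0.0268% of all genes tested were called (0.0201% higher, 0.00669% lower) and 4.23% had such an unadjusted p (2.49% higher, 1.74% lower). None of the 5 was called without control replicate 1 (0.0468% of all genes), without control replicate 2 (0.0268%), with the replicate block (0.0602%) or with the crossed pairing (0.0334%). Means were lower for 4 of them and higher for 1. The median difference of the 8 members was -0.20, and -0.07 without Akr1d1, against 0.03 over all genes tested.

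**Figure D3:**
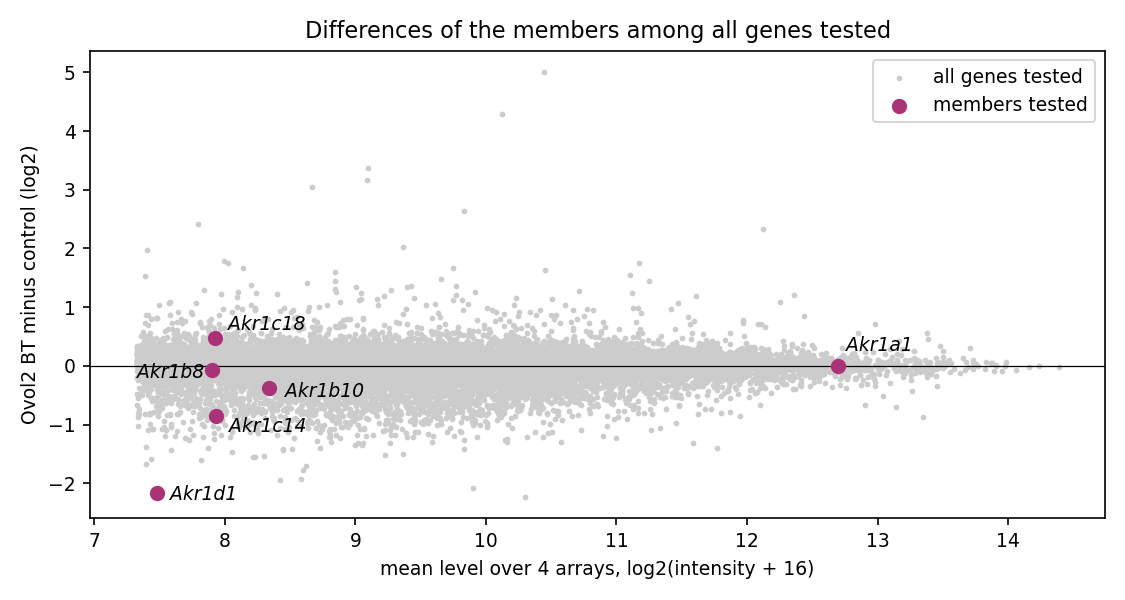
Difference Ovol2 BT minus control (log2, y axis) against the mean level over 4 arrays (log2(intensity + 16), x axis) for all 14953 genes tested (grey), with the 6 members that passed the filter in purple. Akr1d1 lies at -2.17, the value for which the family was taken up, and the other 5 members lie between -0.85 and 0.48.

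The aldose reductase-like genes Akr1b8 and Akr1b10 did not separate the groups. Both lie in a cluster between Akr1b3 and Akr1b7, on the same chromosome as Akr1d1. Akr1b8, first described as a gene induced by fibroblast growth factor, read 7.98 and 7.89 in control skin, against 7.68 and 8.04 in Ovol2 BT skin. The Ovol2 BT arrays again bracketed the controls, and the difference was -0.07 (SE 0.18, limma adjusted p = 0.950, 95% interval from -0.53 to 0.38). Akr1b10 read 8.89 and 8.17 in control skin, against 7.93 and 8.36 in Ovol2 BT skin. Control replicate 1 was its highest array, and the difference between the 2 controls (-0.72, replicate 2 minus replicate 1) exceeded that between the groups (-0.39, SE 0.30, limma adjusted p = 0.906, 95% interval from -1.14 to 0.37). The difference was -0.02 without control replicate 1, -0.75 without control replicate 2, -0.17 without Ovol2 BT replicate 1 and -0.60 without Ovol2 BT replicate 2. Akr1b10 was higher on control replicate 1 than on control replicate 2, and higher on Ovol2 BT replicate 2 than on Ovol2 BT replicate 1. Summed skeletal muscle and adipocyte markers had the same order within each group, over 14 and 10 genes. For muscle the sums were 78887 and 51185 in control against 50893 and 83863 in Ovol2 BT skin. For adipocytes they were 14479 and 10540 against 9885 and 15878. Car3, the brightest adipocyte marker, alone had intensities of 6596.6 and 2996 against 2974.2 and 7074.7. The next brightest, Cebpa and Fabp4, were slightly lower on control replicate 1 than on control replicate 2. The part of muscle and adipocyte content in the values of Akr1b10 was not tested. In whole skin, a smaller share of the cells that make a transcript and less of it in each cell cannot be told apart.

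Akr1c14, which reduces dihydrotestosterone and dihydroprogesterone to less active or neuroactive steroids, was low on 1 array alone. It read 8.64 and 8.07 on the control arrays, 8.53 on Ovol2 BT replicate 1 and 6.49 on Ovol2 BT replicate 2. Replicate 1 lay within the range of the controls and replicate 2 under the filter level of 7.32. The difference of means was -0.85 (SE 0.66, limma adjusted p = 0.906, 95% interval from -2.49 to 0.80). It was 0.17 without Ovol2 BT replicate 2, and -1.86 without Ovol2 BT replicate 1 (limma adjusted p = 0.00108), a fit that rests on the array that stood apart and called 16.4% of all genes.

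Akr1c18, the enzyme that inactivates progesterone in mice, was high on the other Ovol2 BT array. It read 7.93 and 7.44 on the control arrays, 9.02 on Ovol2 BT replicate 1 and 7.30 on Ovol2 BT replicate 2. Replicate 1 was above both controls and replicate 2 under both. The difference of means was 0.48 (SE 0.56, limma adjusted p = 0.910, 95% interval from -0.93 to 1.89). It was 1.34 without Ovol2 BT replicate 2 (limma adjusted p = 0.0366, in a fit that called 0.716% of all genes) and -0.39 without Ovol2 BT replicate 1 (limma adjusted p = 0.277). Akr1c14 and Akr1c18 lie next to each other in the cluster, and both were higher on replicate 1 than on replicate 2 in each group, as were the Y-linked transcripts. The part of sex in these values was not tested.

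Summed markers of visceral epithelia were highest on Ovol2 BT replicate 1, where Akr1c18 was high, but single markers differed in order. Summed intensities of the 20 measured hepatocyte and yolk sac markers were 4694 and 4700 in control skin, against 10062 and 7778 in Ovol2 BT skin. The 15 intestinal markers summed to 3160 and 3665 on the control arrays, 11775 on Ovol2 BT replicate 1 and 4142 on Ovol2 BT replicate 2. The 12 kidney tubule markers summed to 1651 and 1792 against 2074 and 1738. Chosen after their values were seen, Prap1, a secreted protein of gut and uterus, read 7.49 and 7.53 in control skin, against 12.25 and 9.09 in Ovol2 BT skin, and Afp, the fetal liver and yolk sac protein, read 7.26 and 7.03 against 10.95 and 9.43. Of the 20 liver markers, 12 were highest on Ovol2 BT replicate 1 and 7 on Ovol2 BT replicate 2, among these Alb, the serum albumin, at 8.75 on replicate 1 and 10.25 on replicate 2. Of the 15 intestinal markers, 8 were highest on replicate 1, and without Prap1 and Guca2b the sum of the other 13 was 2572 and 2985 on the control arrays, 3188 on Ovol2 BT replicate 1 and 2996 on Ovol2 BT replicate 2. Of the 12 kidney markers 8 were highest on replicate 1. Among the 5 kidney markers tested, 2 were higher without overlap and 1 was lower, Cubn. Cubn read 7.90 and 7.80 in control skin, against 7.13 and 7.01 in Ovol2 BT skin, where it lay under the filter level. Of the 13 liver markers tested, 10 were higher without overlap and none lower, where 20.1% of all genes tested were higher and 14.1% lower. Afp, Ttr and Apoa2 lay under the filter level on both control arrays and passed it through the Ovol2 BT arrays, where they were higher. Fabp1, left untested by the filter, was lower without overlap (-0.05). Limma called none over all genes. At an unadjusted limma p under 0.05 there were 6, all higher, Afp and Ttr among them, where 2.49% of all genes tested were higher at that p. No marker read 0, but 7 of 20 liver, 9 of 15 intestinal and 7 of 12 kidney markers lay under the filter level, Fabp1 and Fabp2 among them. Their part in the Akr1c18 value was not tested. Akr1d1 was lower on both arrays on which the liver sum was higher, and the part of liver content in its value was not tested.

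**Figure D4:**
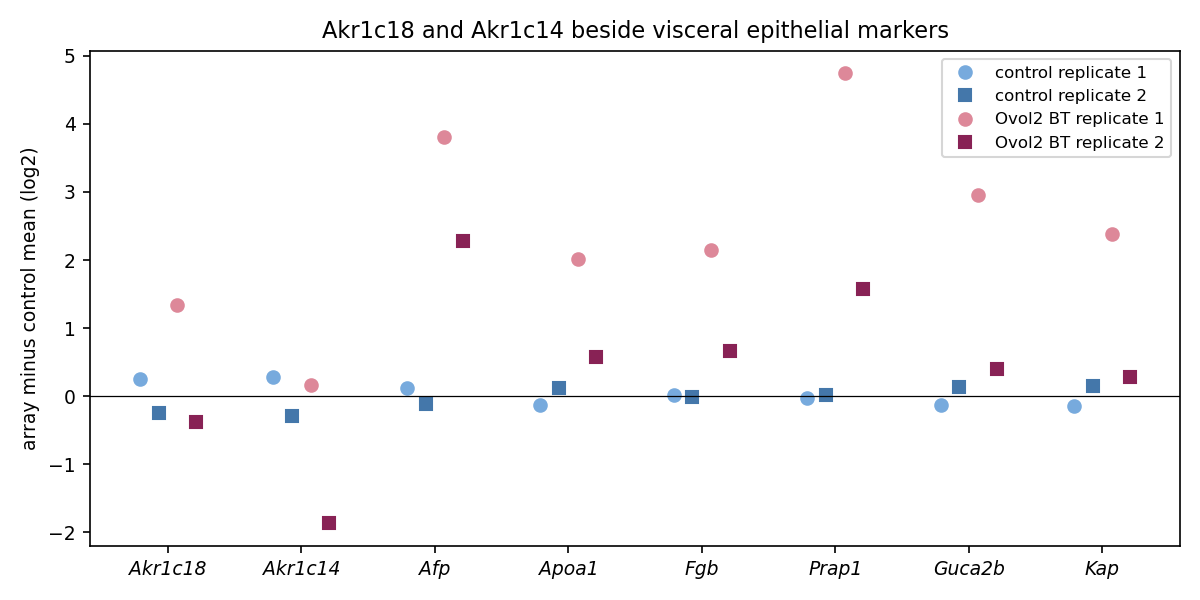
Level on each array minus the control mean (log2) for Akr1c18, Akr1c14 and 6 markers of liver, yolk sac, gut and kidney chosen after their values were seen; circles are replicate 1 and squares replicate 2. Akr1c18 and these 6 markers are highest on Ovol2 BT replicate 1, and Akr1c14 is lowest on Ovol2 BT replicate 2. Of the 20 liver markers 7 (Alb among them) are highest on Ovol2 BT replicate 2 and are not plotted. Only 8 of the 15 intestinal and 8 of the 12 kidney markers are highest on Ovol2 BT replicate 1.

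Akr1c12 and Akr1c13, close relatives in the same cluster that act on steroids and foreign compounds, were dim on all 4 arrays and stayed under the filter, so they were not tested. Akr1c12 read 6.29 and 6.61 in control skin, against 6.58 and 6.20 in Ovol2 BT skin, with overlapping groups. Akr1c13 read 6.25 and 6.39 in control skin, against 6.24 and 5.76 in Ovol2 BT skin. Both Ovol2 BT arrays were lower than both controls, though by a very small gap between the nearest arrays. Of the 8 members 2 were lower without overlap, Akr1d1 and Akr1c13, and none was higher, where 13.6% of all named genes were lower and 20.5% higher without overlap. With each array centred on its median, Akr1c13 overlapped as well. Genes of the Akr1c cluster are close copies, and whether their probes also catch each other's transcripts was not examined.

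Keratinocyte markers differed both ways. The 14 measured markers summed to 121614 and 120430 in control skin, against 105392 and 101621 in Ovol2 BT skin. Of these, 6 were lower and 2 higher without overlap, where 14.1% of all genes tested were lower and 20.1% higher. Their differences ran from -1.41 to 1.35 with a median of -0.08, and limma called none over all genes (1 higher and 4 lower at an unadjusted p under 0.05). The part of keratinocyte content in the Akr1d1 value was not tested. The 11 dermal fibroblast markers had a median difference of 0.03.

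Other aldo-keto reductases differed less than Akr1d1, which was taken up for its low value. Of all 14953 genes tested, only 1 had a lower difference than Akr1d1. All 10 on the list were measured and 4 were tested, with differences from -0.44 (Akr1e1) to 0.21 (Akr7a5). Limma called none of the 4, none had an unadjusted p under 0.05, and all 4 had overlapping groups. The other 6 (Akr1c6, Akr1c19, Akr1c20, Akr1c21, Akr1cl and Kcnab1) were dim and under the filter. Of these Akr1c19 (-0.16) and Akr1cl (-0.37) were lower without overlap, as were 13.6% of all named genes. Akr1e1 lies at the end of the Akr1c cluster.

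The enzymes that make and break down steroids and bile acids around Akr1d1 were not called either. Of 49 on the list 41 were measured and 24 tested. Limma called none over all genes and none had an unadjusted p under 0.05. Their median difference was 0.06, with 2 higher and 2 lower without overlap, where 20.1% of all genes tested were higher and 14.1% lower. Hsd17b14, a hydroxysteroid dehydrogenase, read 9.30 and 8.65 in control skin, against 9.49 and 9.58 in Ovol2 BT skin (0.56, SE 0.27, limma adjusted p = 0.906). Sult2b1, the cholesterol sulfotransferase of the epidermis, read 11.56 and 11.58 against 11.20 and 11.53 (-0.21, SE 0.16, limma adjusted p = 0.906). Acox2 (0.11) and Hsd17b4 (-0.14), both of bile acid side chain shortening in peroxisomes, differed less. Among the 7 tested receptors for steroids and bile acids, the glucocorticoid receptor Nr3c1 read 10.47 and 10.46 on the control arrays, 10.42 on Ovol2 BT replicate 1 and 9.24 on Ovol2 BT replicate 2, and its difference of -0.64 (SE 0.40) was not called. Nr1i3, a xenobiotic receptor, differed by 0.25 (SE 0.15), and the list's median was -0.16 with none called or at an unadjusted p under 0.05.

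Enzymes that share aldehyde and retinaldehyde substrates with the family were not called. Of 30 listed 29 were measured and 26 tested, with a median of -0.21 against 0.03 over all genes tested. Set against the control mean, the median was -0.18 on Ovol2 BT replicate 1 and -0.04 on Ovol2 BT replicate 2. Without overlap were 8 lower and 2 higher genes, against 14.1% lower and 20.1% higher of all genes tested. Limma called none over all genes, with 1 higher and 2 lower at an unadjusted p under 0.05. Aldh1a7, an aldehyde dehydrogenase close to the retinaldehyde dehydrogenases, read 10.05 and 9.80 in control skin, against 8.54 and 8.68 in Ovol2 BT skin (-1.32, SE 0.20, limma adjusted p = 0.381). Adh1, an alcohol dehydrogenase, read 13.19 and 13.12 against 12.78 and 12.85 (-0.34, SE 0.08, limma adjusted p = 0.670). Cbr2, a carbonyl reductase, read 11.10 and 11.15 against 11.83 and 12.10 (0.84, SE 0.15, limma adjusted p = 0.484).

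The list of Nrf2 response genes, which code for antioxidant and detoxifying proteins, had a median near that of all genes tested. All 27 that were measured, of 30 listed, were tested, with a median of 0.07 against 0.03. Without overlap 8 were higher and 5 lower, where 20.1% of all genes tested were higher and 14.1% lower. Limma called none over all genes, and 4 higher and 3 lower had an unadjusted p under 0.05. Hmox1, which breaks down haem, read 10.72 and 10.28 in control skin, against 11.62 and 11.85 in Ovol2 BT skin (1.24, SE 0.21, limma adjusted p = 0.432). Nqo1, a quinone reductase, read 8.04 and 7.87 against 8.54 and 9.24 (0.94, SE 0.27, limma adjusted p = 0.884). The glutathione transferases Gsta4 and Gsta3 were lower on both Ovol2 BT arrays, without passing the test. Gsta4 read 10.38 and 10.69 against 9.14 and 9.50 (-1.22, SE 0.23, limma adjusted p = 0.484), and Gsta3 read 7.85 and 7.81 against 7.17 and 6.88 (-0.80, SE 0.16, limma adjusted p = 0.523). Gsta3, among the 3 lower at that unadjusted p, was dim on both Ovol2 BT arrays, under 7.32. It passed the filter through its control arrays, where it was higher.

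Genes of prostaglandin synthesis, turnover and receptors, listed because prostaglandins are among the family's substrates, had a median of -0.05 over 18 tested of 21 listed. Limma called none over all genes, with 1 higher and none lower at an unadjusted p under 0.05. Without overlap 3 were higher and 5 lower, where 20.1% of all genes tested were higher and 14.1% lower. Ptges, a prostaglandin E synthase, read 11.29 and 11.38 in control skin, against 11.67 and 11.93 in Ovol2 BT skin (0.46, SE 0.15, limma adjusted p = 0.906). The prostaglandin F receptor Ptgfr read 9.57 and 9.33 against 9.11 and 8.81 (-0.49, SE 0.21, limma adjusted p = 0.906). Ptgis, the prostacyclin synthase, differed by 0.46 and Ptgr2, a prostaglandin reductase, by -0.30. Without Ovol2 BT replicate 2, limma called 4 of the 106 tested genes of the 6 lists, or 3.77% beside 0.716% of all genes, namely Hmox1 (1.12), Slc7a11 (1.31), Aldh1a7 (-1.39) and Gsta4 (-1.40), and without Ovol2 BT replicate 1 it called 21, or 19.8%, beside 16.4% of all genes.

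**Figure D5:**
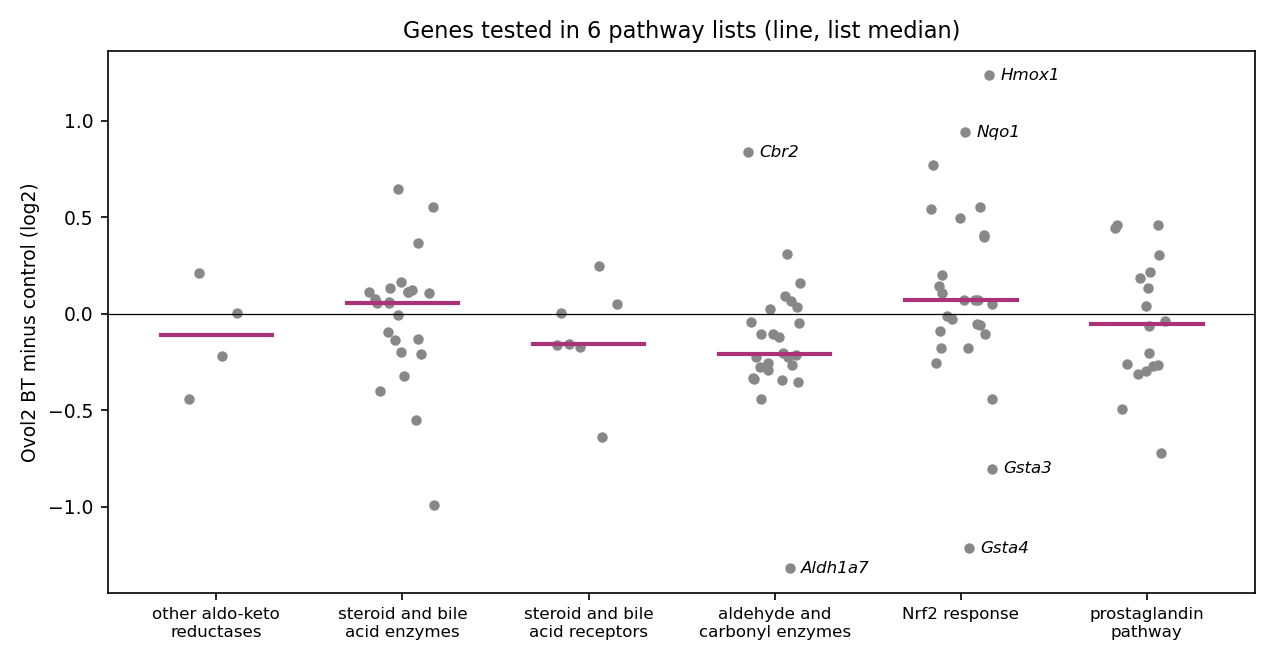
Difference Ovol2 BT minus control (log2) of each tested gene of the 6 pathway lists; grey points are genes, purple lines list medians, and 6 genes whose values are given above are labelled. The list medians lie between -0.21 and 0.07, and the labelled genes go both ways.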

How the data were processed

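The deposited values are linear intensities of probe sets, made by the authors with Affymetrix Expression Console 1.1.1 and PLIER 2.0, per the submitters' processing notes. How arrays were normalised to each other, and the genome build: not given in the sources used here. Of 35557 probe sets the platform annotation gave 1 symbol for 21789. Symbols were updated through Entrez numbers to RefSeq of GRCm38.p6. The number of arrays limits the precision.

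Levels were log2(intensity + 16), the brightest probe set was taken per gene, and genes with a mean under the 25th percentile were left out, so the offset shrinks differences of dim genes. limma 3.58.1 in R 4.3.3 fitted Ovol2 BT minus control over 4 arrays (lmFit, eBayes with an intensity trend, two-sided, 2 residual degrees of freedom, 3.45 prior), with Benjamini-Hochberg adjustment over 14953 genes. With 2 arrays a group, the smallest p of an exact permutation test is 0.333, and none is given. The p-values measure the spread between arrays of 2 pooled mice. Fits with an array left out keep the genes tested on 4 arrays. This was settled after a first run had recomputed the filter on 3 arrays, which left Akr1d1 untested without a control. The brightest probe set was likewise first ranked by linear and then by log2 mean, which moved no member. The steps were tested on simulated data. The members, the gene lists and the rule for named genes were chosen with earlier results of these data known. The rule named the members, in each pathway list the called genes or else up to 2 per direction with the largest difference without overlap, up to 3 of the brightest markers per list (of which few are printed), Ovol2, and the 5 genes most like Akr1d1; Prap1, Alb, Afp, the other markers plotted, the neighbours of Akr1d1 and remaining names were chosen after their values were seen. Lists of endothelial, erythroid and steroid-making cells had medians of 0.10, 0.56 and 0.00 (0.000856), with none called in limma (the erythroid median was -0.16 on Ovol2 BT replicate 1 and 1.51 on replicate 2, the array that differed from the rest) and none at an unadjusted p under 0.05.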

Additional observations from a re-analysis of the deposited data

How the results depend on the processing

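Tried were offsets of 1 and 64, median centring, quantile normalisation, no filter, a filter at the 50th percentile, no intensity trend, the mean of all probe sets, the replicate block and leaving out each array. A lone array left in a group is assumed to vary like the other group. Of the members besides Akr1d1, the filter at the 50th percentile left only Akr1a1 tested. The mean of all probe sets could not change a member's level, as each had 1 probe set. Akr1d1 ranged from -2.40 (offset 1) to -1.69 (offset 64). The count of called members besides Akr1d1 was 0, and 0 to 1 when arrays were left out; that of pathway genes was 0, and 0 to 21. Members lower without overlap numbered 2, 1 with median centring and 3 to 5 with an array left out, and members higher 0 to 2; with 1 array in a group, fewer values have to separate. Akr1a1 (-0.00402) changed sign with median centring (0.0475). With arrays left out it ranged from -0.0639 to 0.0559, Akr1b8 from -0.25 to 0.11, Akr1b10 from -0.75 to -0.02, Akr1c14 from -1.86 to 0.17 and Akr1c18 from -0.39 to 1.34. The cause was not tested. The replicate numbers were not shown to pair the arrays (correlation of deviations -0.172). With the replicate block limma called 9 genes of all tested, against 4, and 0 members besides Akr1d1 and 0 pathway genes; with the crossed pairing, added after seeing the data, it called 5, 0 and 0. Dim members are limited by the signal over background.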

Other observations

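Of the 5 genes with values most like those of Akr1d1, Ptprz1 and Wnt16 lie on its chromosome (Cldn8 was not placed by the table), as do 5.26% of the tested genes placed by the RefSeq table of GRCm38.p6. These 5 genes are few and were chosen by likeness to Akr1d1, so their places are a description. The part of chromosome position in their values was not tested. The labelled strains differ between the groups, and no array here separates strain from the transgene.

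Cyp17a1, an enzyme of androgen synthesis, was high on 1 control array, at 10.82 on control replicate 2 against 8.75 on control replicate 1 and 8.98 and 8.60 on the Ovol2 BT arrays.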
